A study of Homo sapiens with 6 samples.

Results

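The transforming growth factor beta (TGF-beta) genes described here are 10 genes of the 46427 in a gene count table of HCT116 cells. They are the ligands TGFB1 and TGFB2, the receptors TGFBR1, TGFBR2 and TGFBR3, the signal transducers SMAD2, SMAD3 and SMAD4, the nuclear corepressor SKIL and the secreted target TGFBI. They were chosen by symbol, with earlier results of these data known. RNA was compared between parental HCT116 cells (*ZK3*-WT, 3 libraries) and HCT116 cells in which the start codon in the first exon of ZKSCAN3, a zinc finger transcription factor gene, was deleted with CRISPR/Cas9, on both alleles according to the methods (*ZK3*-KO, 3 libraries). HCT116 is an established human colon carcinoma line. Both genotypes were grown in DMEM with 10% FBS, and the labels name no added TGF-beta. Below, values over libraries are listed in the order of replicates 1, 2 and 3, with the *ZK3*-WT libraries called parental and the *ZK3*-KO libraries called knockout. The methods describe isolation of *ZK3*-KO cells by single-cell selection of clones under puromycin, whereas the parental cells are not described as a clone. Whether the 3 *ZK3*-KO libraries come from 1 clone is not stated. A difference between the genotypes and a difference of selected clones from their parent cannot be told apart.

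TGF-beta ligands are secreted in a latent form and, once released, bind the type II receptor TGFBR2, which recruits and phosphorylates the type I receptor TGFBR1. TGFBR3, also called betaglycan, is a coreceptor that presents ligand, and TGFB2 depends on it more than the other ligands do. Activated TGFBR1 phosphorylates SMAD2 and SMAD3, which enter the nucleus with SMAD4 and change transcription, while SKIL, itself a target of the pathway, holds SMAD complexes in check. In normal colon epithelium the pathway restrains growth. It is often lost in colon cancers with defective DNA mismatch repair, such as the one HCT116 came from, by frameshifts in a run of adenines in the coding sequence of TGFBR2.

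Between 60827060 and 69739215 reads were counted per library. *ZK3*-KO replicate 3 stood apart from the other libraries of its genotype. CPM is reads per gene scaled to a common library size by the TMM method of edgeR. Across genes, the Pearson correlations of its log2 CPM with *ZK3*-KO replicates 1 and 2 were 0.959 and 0.944. The other pairs within a genotype had 0.981 to 0.986. *ZK3*-KO replicate 3 was no closer to its own genotype than to *ZK3*-WT replicate 3 (0.960), so results are also given without it. ZKSCAN3 RNA did not separate the genotypes: it was 28.1, 23.4 and 19.8 CPM in the parental libraries and 25.4, 24.9 and 13.6 CPM in the knockout libraries (log2 fold change -0.16 ± 0.27, standard error, FDR 0.797 by edgeR, and 0.09 without *ZK3*-KO replicate 3), and counts per gene do not show the deleted start codon. All 6 epithelial markers listed (EPCAM, CDH1, KRT8, KRT18, KRT19 and CLDN7) were at or above 36.9 TPM (the deposited unit that also corrects for transcript length) in every library. Their summed level ranged from 3956 to 5109 TPM in *ZK3*-WT libraries and from 3576 to 6046 TPM in *ZK3*-KO libraries. The 5 fibroblast markers (COL1A2, COL3A1, DCN, LUM and PDGFRB) and 3 endothelial markers were each below 1 TPM everywhere. COL1A1, a collagen gene listed among target genes of the pathway, was not among these markers. It was at 17.3 to 21.4 TPM in parental and 11.9 to 29.1 TPM in knockout libraries. Of 4 leukocyte markers PTPRC and CD3E were at 0 in all libraries. The leukocyte sum, nearly all CD68, was 3.78 to 12.5 TPM in parental and 2.05 to 8.15 TPM in knockout libraries.

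The difference between genotypes was tested for 18366 genes with enough reads by edgeR's quasi-likelihood test, with p-values adjusted over all of them to a false discovery rate (FDR), and a gene is called where the FDR is below 0.05. Log2 fold changes are of *ZK3*-KO over *ZK3*-WT cells and carry their standard error (SE) after the ± sign. One gene of the TGF-beta group passed, and it was lower in *ZK3*-KO cells: TGFBR2, at 26.4 ± 3.07 CPM (SD, n = 3) against 70.0 ± 18.5 CPM (SD, n = 3) in *ZK3*-WT cells. Of the 10 genes, 9 had enough reads to be tested, 8 did not pass, and TGFBI was too low to test. The 1 call among 9 stands beside 2.05% of all tested genes called in either direction and 1.23% called lower. Without adjustment, TGFBR2, TGFB2 and SKIL had a p-value under 0.05, all with lower values in *ZK3*-KO cells, beside 18.4% of all genes in either direction and 9.46% on the lower side. TGFBR2, TGFB2 and SMAD4 had lower CPM in every *ZK3*-KO library than in any *ZK3*-WT library, where 26.6% of all tested genes had groups that did not overlap and 13.8% did so with *ZK3*-KO lower. The median log2 fold change of the 9 genes was -0.17, beside 0.02 for all tested genes. Without *ZK3*-KO replicate 3, TGFBR2 and TGFB2 passed, both lower, where 15.1% of 18872 tested genes were called and 7.73% were called lower. DESeq2 on all libraries called the same pair of genes, beside 8.2% of all tested genes.

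**Figure D1:**
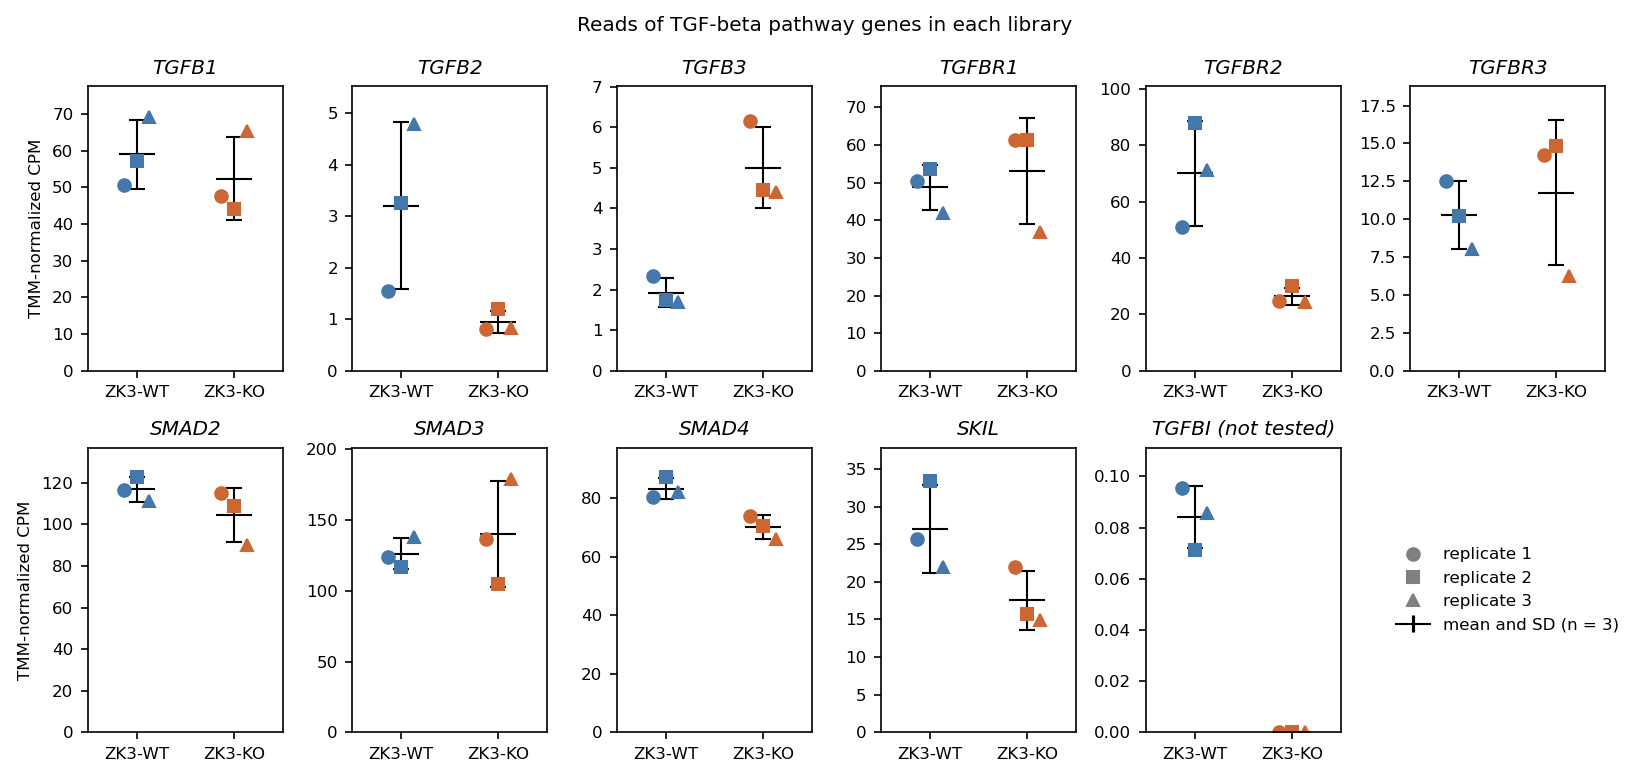
TMM-normalized CPM (vertical axes, from 0, each gene on its own scale) of the 10 genes and of the third ligand gene, TGFB3, in each of the 3 *ZK3*-WT (blue) and 3 *ZK3*-KO (orange) libraries, with marker shapes for replicate numbers and black bars for mean and SD. All 3 *ZK3*-KO libraries sit below all *ZK3*-WT libraries for TGFBR2 (24.6 to 29.9 against 50.8 to 87.8 CPM), TGFB2 and SMAD4, and above them for TGFB3.

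The ligand genes are TGFB1, the main TGF-beta of most epithelial and blood cells, and TGFB2, which is better known from development, the eye and mesenchyme. TGFB1 (NCBI Gene 7040) lies on chromosome 19 (GRCh37, 41807492 to 41859827, reverse strand). Its reads were 3182, 4016 and 4833 in the parental libraries, or 50.6, 57.3 and 69.1 CPM, and 3066, 3058 and 4037 in the knockout libraries, or 47.6, 44.1 and 65.3 CPM. The groups overlapped, and the third replicate was the highest of both. Its log2 fold change was -0.17 ± 0.20 (SE, FDR 0.700 by edgeR), within the spread between replicates, and -0.36 without *ZK3*-KO replicate 3 (FDR 0.165 by the same test). Exons of TGFB1 share 215 bases with HNRNPUL1 on the other strand, which was counted at 16080 to 23484 reads per library. Whether counting used strand is not given in the sources used here, so how many TGFB1 reads come from that stretch was not tested.

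TGFB2 (NCBI Gene 7042), on chromosome 1 (GRCh37, 218518678 to 218617961, forward strand), was far scarcer. It had 98, 229 and 335 reads in the parental libraries, or 1.56, 3.27 and 4.79 CPM. In the knockout libraries it had 52, 83 and 52 reads, or 0.807, 1.20 and 0.842 CPM. Every *ZK3*-KO library was below every *ZK3*-WT library, but *ZK3*-WT replicate 1 lay closer to the *ZK3*-KO libraries than to the other *ZK3*-WT libraries. The parental mean was 3.21 ± 1.62 CPM and the knockout mean 0.949 ± 0.216 CPM (SD, n = 3). In edgeR's fit the level was 3.37 times as high in *ZK3*-WT cells. With all libraries, edgeR gave TGFB2 a log2 fold change of -1.75 with a standard error of 0.44, and the FDR of 0.0970 did not pass. It passed without *ZK3*-KO replicate 3 (log2 fold change -1.67, FDR 0.0426) and in DESeq2 (FDR 0.00362). The antisense gene TGFB2-AS1 overlaps 701 exonic bases and had at most 1 read per library.

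The third ligand gene, TGFB3 (NCBI Gene 7043), known for its role in palate closure, was on the list of other pathway genes. It had 147, 123 and 118 reads in the parental libraries and 396, 309 and 272 reads in the knockout libraries. This was 1.93 ± 0.358 CPM (SD, n = 3) against 5.00 ± 0.993 CPM (SD, n = 3), and the groups did not overlap. TGFB3 was higher in *ZK3*-KO cells (log2 fold change 1.38 ± 0.26 SE, FDR 0.0469 by edgeR), just inside the threshold. The FDR was 0.112, 0.244 and 0.226 without *ZK3*-WT replicates 1, 2 and 3 and 0.164 and 0.0838 without *ZK3*-KO replicates 1 and 2, and 0.00884 without *ZK3*-KO replicate 3. In the refits where TGFB3 did not pass, its log2 fold change was 1.21 to 1.54, and 49 to 158 genes passed in all. TGFB3 lies on chromosome 14 (GRCh37, 76424440 to 76449354, reverse strand). The median log2 fold change of 504 tested genes on chromosome 14 was 0.51, whereas it was between -0.06 and 0.14 on 20 of the other 21 autosomes and -0.39 on chromosome 21. The part of that shift in the TGFB3 result was not tested.

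Because the 3 ligand genes differed in level and in direction, their RefSeq promoters are shown, as the 250 bases before the transcription start on GRCh38.p14. For TGFB3, which has 2 RefSeq starts, only the farthest downstream was used. Capitals mark the core of a GC box (GGGCGG), to which SP factors bind, and a TATA box (TATAAA), each searched on both strands, and no match overlaps another.
TGFB1, chr19:41353923-41354172, reverse strand: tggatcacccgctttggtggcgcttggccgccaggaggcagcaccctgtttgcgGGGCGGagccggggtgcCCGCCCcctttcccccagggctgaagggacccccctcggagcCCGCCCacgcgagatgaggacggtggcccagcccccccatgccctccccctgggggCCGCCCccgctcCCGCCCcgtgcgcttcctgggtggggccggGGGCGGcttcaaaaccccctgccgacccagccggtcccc
TGFB2, chr1:218345086-218345335, forward strand: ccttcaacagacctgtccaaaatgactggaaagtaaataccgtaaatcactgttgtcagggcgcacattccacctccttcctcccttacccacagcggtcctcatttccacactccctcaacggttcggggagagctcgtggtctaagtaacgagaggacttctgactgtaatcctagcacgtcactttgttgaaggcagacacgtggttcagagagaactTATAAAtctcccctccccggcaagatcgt
TGFB3, chr14:75981996-75982245, reverse strand: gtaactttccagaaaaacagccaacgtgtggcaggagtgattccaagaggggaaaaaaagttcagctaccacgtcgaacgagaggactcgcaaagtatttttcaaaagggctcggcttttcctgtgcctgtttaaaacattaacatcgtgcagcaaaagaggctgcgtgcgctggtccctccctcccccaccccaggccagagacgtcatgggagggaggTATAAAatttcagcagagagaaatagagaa
The TGFB1 promoter held 6 GC boxes and no TATA box, with 76.8% G and C and 21 CpG. TGFB2 and TGFB3 each held 1 TATA box near the start and no GC box, with 50.4% and 49.2% G and C and 11 and 10 CpG. Of 35116 promoters of the same length, 42.6% held a GC box and 10.7% a TATA box, and the medians were 58.0% G and C and 11 CpG. At the starts used, both scarce ligand genes thus shared a TATA box and a G and C content below that median. The promoter of TGFBI, scarcer still but not a ligand, did not share these features. It held 3 GC boxes and no TATA box, with 72.8% G and C and 20 CpG. TGFB2 had lower and TGFB3 higher CPM in *ZK3*-KO cells.

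On the TPM scale, which allows genes to be compared, TGFB1 made up most of the ligand RNA in every library. Its share of the summed TPM of TGFB1, TGFB2 and TGFB3 was 94.9%, 95.0% and 95.0% in the parental libraries and 89.9%, 91.4% and 94.3% in the knockout libraries. The share of TGFB2 was 1.36%, 2.56% and 3.08% in *ZK3*-WT libraries and 0.694%, 1.13% and 0.556% in *ZK3*-KO libraries. The share of TGFB3 was 3.71%, 2.44% and 1.87% against 9.39%, 7.43% and 5.11%. The groups did not overlap for any of the 3 shares. The shares add up to the whole in each library, so they are not separate results. The CPM of TGFB1 itself overlapped between the genotypes. TGFB2 and TGFB3 took overlapping shares in *ZK3*-WT cells, at 2.33% ± 0.88 and 2.68% ± 0.941 (SD, n = 3), while in *ZK3*-KO cells TGFB3 was the larger in every library, at 7.31% ± 2.14 against 0.792% ± 0.297 (SD, n = 3). A two-sided exact permutation test gave p = 0.1 for each share, the smallest p that 3 against 3 libraries allow.

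TGFBR2 (NCBI Gene 7048), the type II receptor that binds ligand and starts the signal, lies on chromosome 3 (GRCh37, 30648093 to 30735634, forward strand). It was counted at 3195, 6155 and 4982 reads in the parental libraries, or 50.8, 87.8 and 71.3 CPM. In the knockout libraries it had 1585, 2074 and 1518 reads, or 24.6, 29.9 and 24.6 CPM. All *ZK3*-KO libraries were below all *ZK3*-WT libraries, they lay close together, and *ZK3*-WT replicate 1 was the lowest of its group. The mean CPM was 2.65 times as high in *ZK3*-WT cells. For TGFBR2 the log2 fold change was -1.41 with a standard error of 0.22 and an FDR of 0.0275 by edgeR, and *ZK3*-KO replicate 3 was not needed for it (log2 fold change -1.36, FDR 0.00869 without it). Left without 1 of 4 other libraries the log2 fold change stayed negative but did not pass, as the FDR was 0.141 and 0.137 without *ZK3*-WT replicates 2 and 3 and 0.142 and 0.0599 without *ZK3*-KO replicates 1 and 2. In bulk RNA, fewer cells with TGFBR2 RNA and less of it per cell cannot be told apart.

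The run of adenines known for frameshifts in mismatch repair-deficient colon cancers lies in coding exon 3 of 7, at codons 125 to 128. Its reference sequence is shown because this background bears on any reading of TGFBR2 RNA in HCT116. On GRCh37 the run spans 10 bases, from 30691872 to 30691881 of chromosome 3, and is in capitals in this stretch of 60 bases on the forward strand.
TGFBR2, chr3:30691847-30691906: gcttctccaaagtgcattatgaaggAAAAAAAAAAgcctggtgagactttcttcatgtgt
The counts per gene do not show which length of the run the reads carried, so they give the amount of TGFBR2 RNA and not whether it encodes a whole receptor. The TGFBR2 promoter is shown beside those of the ligands because TGFBR2 was the gene that passed, as the 250 bases before the farthest downstream of 2 RefSeq starts on GRCh38.p14, with GC boxes in capitals.
TGFBR2, chr3:30606351-30606600, forward strand: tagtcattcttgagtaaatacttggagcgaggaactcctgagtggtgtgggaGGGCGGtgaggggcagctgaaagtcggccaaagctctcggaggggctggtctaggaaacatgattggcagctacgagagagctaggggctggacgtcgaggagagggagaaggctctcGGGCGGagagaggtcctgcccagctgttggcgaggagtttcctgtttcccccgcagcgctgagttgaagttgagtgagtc
It held 2 GC boxes and no TATA box, with 58.4% G and C and 12 CpG, close to the medians over all promoters.

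TGFBR1 (NCBI Gene 7046), the type I receptor kinase that phosphorylates SMAD2 and SMAD3, lies on chromosome 9 (GRCh37, 101866320 to 101916474, forward strand). It was at 50.6, 53.7 and 42.0 CPM in the parental libraries and at 61.2, 61.4 and 36.8 CPM in the knockout libraries. The *ZK3*-KO group held both the highest values and the lowest, the latter in replicate 3. TGFBR1 had a log2 fold change of 0.12 ± 0.23 (SE, FDR 0.812 by edgeR), and 0.34 without *ZK3*-KO replicate 3 (standard error 0.15, FDR 0.150).

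TGFBR3 (NCBI Gene 7049), the coreceptor, lies on chromosome 1 (GRCh37, 92145900 to 92371892, reverse strand). It was at 12.5, 10.2 and 8.04 CPM in the parental libraries and at 14.2, 14.8 and 6.23 CPM in the knockout libraries. The pattern was like that of TGFBR1, with *ZK3*-KO replicates 1 and 2 above and replicate 3 below all *ZK3*-WT libraries. Its log2 fold change was 0.20 ± 0.35 (SE, FDR 0.804 by edgeR), and 0.51 without *ZK3*-KO replicate 3 (FDR 0.121). Over the 6 libraries the log2 CPM of TGFBR1 and TGFBR3 had a Pearson r of 0.96, given as a description of libraries that share genotype and the replicate 3 pattern.

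The ratio of the receptors separated the genotypes, as did TGFBR2 alone, so the ratio is not a separate result. The ratio of TGFBR2 to TGFBR1 on the TPM scale was 1.39, 2.26 and 2.39 in the parental libraries. It was 0.559, 0.676 and 0.939 in the knockout libraries. TGFBR2 RNA exceeded TGFBR1 RNA in every *ZK3*-WT library and was below it in every *ZK3*-KO library. The mean ratio was 2.01 ± 0.539 (SD, n = 3) against 0.725 ± 0.195 (SD, n = 3), and the two-sided exact permutation test gave p = 0.1, the smallest it can give here.

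**Figure D2:**
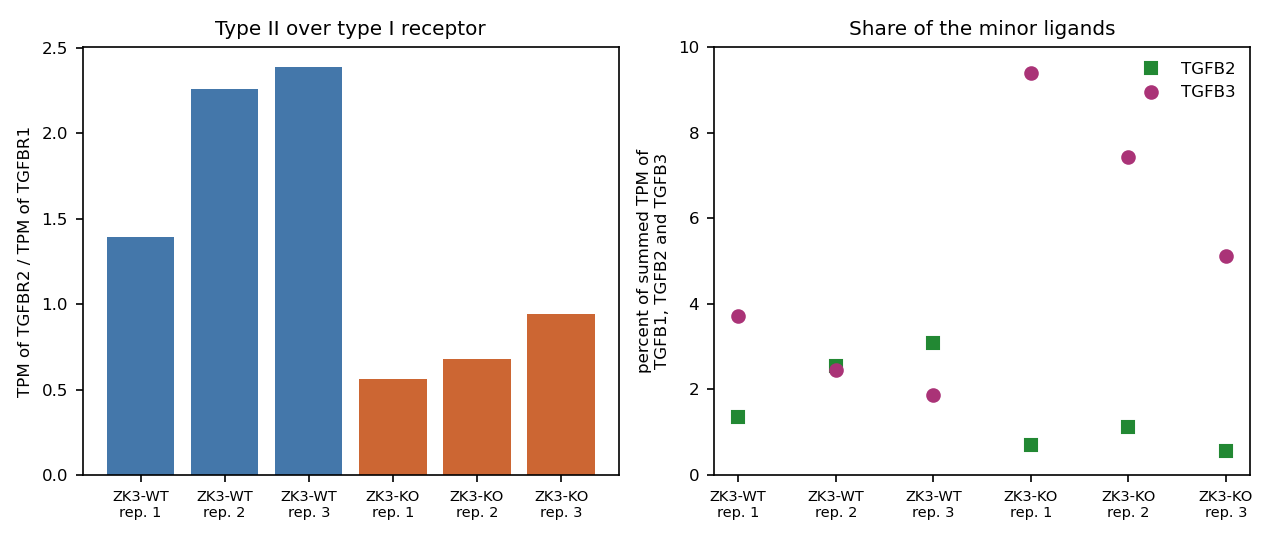
Left, TPM of TGFBR2 divided by TPM of TGFBR1 (bars from 0) in each library, which was 1.39 to 2.39 in *ZK3*-WT (blue) and 0.559 to 0.939 in *ZK3*-KO (orange) libraries. Right, percent of the summed TPM of the 3 ligand genes taken by TGFB2 (green squares) and TGFB3 (purple circles) in each library, where TGFB3 stands above TGFB2 in all 3 *ZK3*-KO libraries and in 1 of 3 *ZK3*-WT libraries.

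None of the 3 SMAD genes passed by edgeR, DESeq2 or limma, and none had an unadjusted p under 0.05. SMAD2 (NCBI Gene 4087), on chromosome 18 (GRCh37, 45335328 to 45457517, reverse strand), was at 116, 123 and 111 CPM in the parental libraries and at 115, 109 and 90.0 CPM in the knockout libraries. The groups overlapped, and its log2 fold change was -0.16 ± 0.15 (SE, FDR 0.616 by edgeR), and -0.058 without *ZK3*-KO replicate 3. SMAD3 (NCBI Gene 4088), on chromosome 15 (GRCh37, 67356101 to 67487511, forward strand), was at 124, 116 and 138 CPM in *ZK3*-WT libraries and at 137, 105 and 179 CPM in *ZK3*-KO libraries. *ZK3*-KO replicate 3 was the highest for SMAD3 and the lowest for SMAD2. For SMAD3 the log2 fold change was 0.15 ± 0.21 (SE, FDR 0.756), and it turned to -0.06 without *ZK3*-KO replicate 3 (FDR 0.821). An antisense long noncoding RNA outside the count table overlaps 182 exonic bases of SMAD3.

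SMAD4 (NCBI Gene 4089), the common partner of SMAD2 and SMAD3 and a tumour suppressor of the colon, lies on chromosome 18 (GRCh37, 48554898 to 48611415, forward strand). It was at 80.6, 87.5 and 82.1 CPM in the parental libraries and at 74.0, 70.7 and 66.0 CPM in the knockout libraries. The groups did not overlap but lay close, with means of 83.4 ± 3.62 and 70.2 ± 4.05 CPM (SD, n = 3). Its log2 fold change was -0.25 ± 0.13 (SE) and did not pass (FDR 0.360 by edgeR). On the TPM scale the ratio of SMAD3 to SMAD2 was 2.91, 2.06 and 3.05 in *ZK3*-WT libraries and 3.66, 2.23 and 6.64 in *ZK3*-KO libraries, with overlapping groups (two-sided exact permutation p = 0.4). The ratio of SMAD4 to the sum of SMAD2 and SMAD3 was 0.350 ± 0.0218 (SD, n = 3) against 0.295 ± 0.0543 (SD, n = 3), with p = 0.2 in the same exact test.

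SKIL (NCBI Gene 6498), also called SnoN, lies on chromosome 3 (GRCh37, 170075130 to 170114623, forward strand). It was at 25.7, 33.4 and 22.0 CPM in the parental libraries and at 22.0, 15.7 and 15.0 CPM in the knockout libraries. The groups met, since the lowest *ZK3*-WT and the highest *ZK3*-KO library had nearly the same level. SKIL had a log2 fold change of -0.62 ± 0.23 (SE, FDR 0.211 by edgeR) and did not pass, nor did it under any of the 14 alternative settings.

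TGFBI (NCBI Gene 7045), a matrix protein named for its induction by TGF-beta, lies on chromosome 5 (GRCh37, 135364677 to 135399507, forward strand). It had 6, 5 and 6 reads in the parental libraries and none in any *ZK3*-KO library. This was 0.0954, 0.0713 and 0.0858 CPM against 0, so the gene was close to silent in both genotypes. Over the groups, 17 reads stood against 0. With a ceiling of 3 reads set for the 3 *ZK3*-KO libraries together, the level was 5.46-fold lower there. This takes the 17 parental reads as fixed, so it is not a lower bound under the counting error of both groups. It was below the filter on low counts, and by edgeR without the filter its FDR was 0.191.

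**Figure D3:**
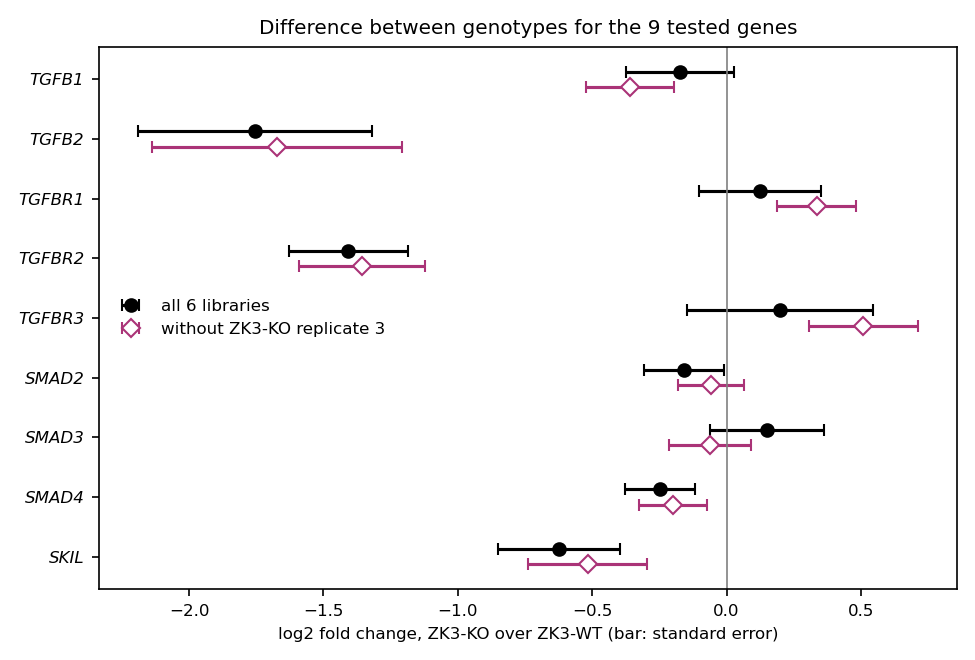
Log2 fold change of *ZK3*-KO over *ZK3*-WT cells (horizontal axis, bars for the standard error) of the 9 tested genes in edgeR's fit, with all 6 libraries (black circles) and without *ZK3*-KO replicate 3 (open diamonds). TGFB2 and TGFBR2 lie near -1.75 and -1.41 in the first and -1.67 and -1.36 in the second, while TGFBR1 and TGFBR3 move from 0.12 and 0.20 to 0.34 and 0.51 and SMAD3 crosses 0.

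By level per transcript length, the order in *ZK3*-WT cells was TGFB1 (45.3 ± 7.14 TPM), SMAD3 (41.5 ± 3.16), TGFBR2 (31.9 ± 8.82), SMAD4 (20.1 ± 1.30), TGFBR1 (16.0 ± 2.18), SMAD2 (15.9 ± 2.81), SKIL (8.02 ± 1.86), TGFBR3 (3.42 ± 0.724), TGFB2 (1.16 ± 0.579) and TGFBI (0.0616 ± 0.0144; mean TPM ± SD, n = 3). Libraries of neighbours overlapped in level for TGFB1 and SMAD3, for SMAD3 and TGFBR2, and for TGFBR1 and SMAD2, so those pairs are not ordered beyond their spread. In *ZK3*-KO cells SMAD3 (41.7 ± 6.72) and TGFB1 (36.4 ± 3.17) were again highest. They were followed by TGFBR1 (16.4 ± 5.81), SMAD4 (15.6 ± 2.69), SMAD2 (11.5 ± 4.17), TGFBR2 (11.1 ± 2.14), SKIL (4.85 ± 1.46), TGFBR3 (3.80 ± 1.88) and TGFB2 (0.308 ± 0.0923). TGFBR2 thus stood between SMAD3 and SMAD4 in *ZK3*-WT cells and beside SMAD2 in *ZK3*-KO cells, where the libraries of TGFBR1, SMAD4, SMAD2 and TGFBR2 overlapped from one to the next, as did those of SKIL and TGFBR3.

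**Figure D4:**
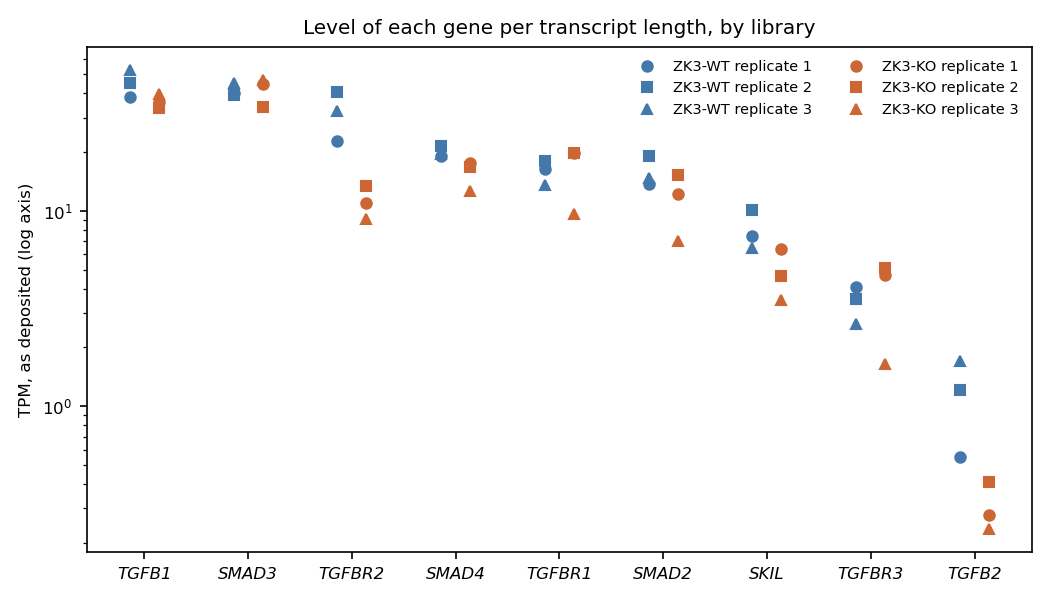
Deposited TPM (log axis) of the 9 tested genes in each library, ordered by the mean in *ZK3*-WT cells, with *ZK3*-WT in blue, *ZK3*-KO in orange and marker shapes for replicate numbers. TGFBR2 is the third gene in *ZK3*-WT cells (22.8 to 40.4 TPM) and lies among TGFBR1, SMAD2 and SMAD4 in *ZK3*-KO cells (9.07 to 13.3 TPM).

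The 3 genes whose log2 CPM over the 6 libraries was most like that of TGFBR2 were RND3 (Pearson r 0.998), POLR3D, a subunit of RNA polymerase III (r 0.998), and MYOF, a membrane protein (r 0.997). The libraries form 2 genotypes, so r includes the difference between them, and no p is given. RND3 was at 14.2, 24.2 and 20.4 CPM in *ZK3*-WT libraries and at 8.18, 9.26 and 7.59 CPM in *ZK3*-KO libraries, and it passed (log2 fold change -1.23, standard error 0.23, FDR 0.0446 by edgeR). MYOF was at 467, 580 and 537 CPM against 331, 357 and 345 CPM. POLR3D was at 45.9, 51.8 and 49.9 CPM against 37.2, 39.1 and 37.7 CPM. Like TGFBR2, each of these genes had its lowest *ZK3*-WT value in replicate 1 and its highest in replicate 2. MYOF and POLR3D did not pass (FDR 0.0961 and 0.196).

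Other genes of the TGF-beta and activin pathways were read from the same fit, by role. Of 72 listed genes 65 were tested, and 2 were called, TGFB3 higher and TGM2 lower, beside the 2.05% of all tested genes. Their median log2 fold change was -0.09. Without adjustment 2 had a p-value under 0.05 on the higher and 9 on the lower side. Groups did not overlap for 2 on the higher and 11 on the lower side. Of all 18366 tested genes, 9.46% had such a p-value and 13.8% did not overlap on the lower side. On the higher side 1633 of the 18366 had such a p-value and 2336 did not overlap. Without *ZK3*-KO replicate 3, 2 of 66 were called higher and 12 lower, beside 15.1% of all tested genes in either direction and 7.73% on the lower side, and the median was -0.05. DESeq2 called TGFB3, TGM2, GDF11, ITGB8, PDGFB, CCN2, INHBA and KLF10 (8.2% of all tested genes). With the replicate number as a block, which called 2.51% of all tested genes, 4 were called: TGFB3, TGM2, GDF11 (FDR 0.0396) and ITGB8 (FDR 0.0271).

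TGM2, a transglutaminase that crosslinks matrix proteins and is induced by TGF-beta in several cell types, fell in *ZK3*-KO cells. It had 2315, 2100 and 2331 reads in the parental libraries and 666, 623 and 560 reads in the knockout libraries. The libraries of each genotype lay close together, at 33.4 ± 3.43 CPM against 9.46 ± 0.761 CPM (SD, n = 3). For TGM2 the log2 fold change was -1.82 ± 0.16 (SE, FDR 0.00441 by edgeR), and it passed under all 14 alternative settings. TGM2 lies on chromosome 20 (GRCh37, 36755787 to 36794980, reverse strand).

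Of 18 other target genes all were tested and TGM2 was called by edgeR, with a median log2 fold change of 0.07. With all libraries 10 of the 18 had a log2 fold change above 0 and 8 below 0. Without *ZK3*-KO replicate 3 the median was -0.46 and 5 were called lower, among them TGM2, CCN2, PDGFB and KLF10. In that fit 7.73% of all tested genes were called lower, and the median over 18366 genes was -0.02. Of the targets given values here, CCN2, PDGFB, CDKN1A, JUNB and COL1A1 had their highest *ZK3*-KO value in replicate 3, as did others of the list. CCN2, a matricellular growth factor, had 238, 832 and 1034 reads in *ZK3*-WT libraries and 132, 75 and 338 reads in *ZK3*-KO libraries, with a log2 fold change of -1.83 (FDR 0.220 by edgeR) and of -2.70 (FDR 0.0165) without *ZK3*-KO replicate 3. PDGFB, a platelet-derived growth factor chain, had 1286, 2134 and 2764 reads against 563, 281 and 1193 reads, with log2 fold changes of -1.50 (FDR 0.203) and -2.24 (FDR 0.00738) in the same pair of fits. KLF10, an early response factor, was at 111, 155 and 162 CPM against 95.8, 78.1 and 91.0 CPM (log2 fold change -0.69, FDR 0.119, and -0.71, FDR 0.0383, in that pair of fits). Across these 3 targets, *ZK3*-KO replicates 1 and 2 were below every *ZK3*-WT library, and *ZK3*-KO replicate 3 was so for PDGFB and KLF10 only.

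CDKN1A, the p21 cell cycle inhibitor, and JUNB, an AP-1 subunit, were the most abundant targets by mean TPM. CDKN1A was at 209, 216 and 314 CPM in *ZK3*-WT libraries and at 339, 198 and 525 CPM in *ZK3*-KO libraries (log2 fold change 0.53, FDR 0.473), with log2 fold changes of 0.13 without *ZK3*-KO replicate 3 and 0.81 without *ZK3*-KO replicate 2. JUNB was at 81.8, 97.2 and 133 CPM against 81.0, 48.3 and 240 CPM (log2 fold change 0.25, FDR 0.848), and its sign turned without *ZK3*-KO replicate 3 (-0.68, FDR 0.105).

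Of the 7 other ligands listed, 5 were tested. TGFB3 was called and the median log2 fold change was -1.07. GDF11, a ligand that signals through activin receptors and SMAD2 and SMAD3, was at 12.0, 13.8 and 11.1 CPM in *ZK3*-WT libraries and at 5.25, 7.86 and 4.48 CPM in *ZK3*-KO libraries. The groups did not overlap, and its log2 fold change of -1.07 ± 0.25 (SE) had an FDR of 0.0835 by edgeR. It passed without *ZK3*-KO replicate 3 (FDR 0.0286). INHBB, an activin subunit, had 60, 59 and 65 reads against 25, 37 and 23 reads, with a log2 fold change of -1.07 (FDR 0.139). INHBA, the other activin subunit, had 9, 26 and 22 reads against 0, 4 and 0 reads. It was lower in every *ZK3*-KO library than in any *ZK3*-WT library and did not pass by edgeR (FDR 0.118), while it passed by DESeq2 (FDR 0.0360).

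Of 11 genes for latency and activation, 10 were tested and none was called by edgeR's test, with 1 on each side under an unadjusted p of 0.05, while DESeq2 and limma called ITGB8. The median log2 fold change was -0.12, and -0.04 without *ZK3*-KO replicate 3. ITGB8, the integrin subunit that with ITGAV releases active TGF-beta from its latent complex, had 724, 2072 and 1075 reads in the parental libraries and 184, 275 and 43 reads in the knockout libraries. All *ZK3*-KO libraries were below all *ZK3*-WT libraries. The mean was 18.8 ± 9.50 CPM against 2.51 ± 1.66 CPM (SD, n = 3), and in edgeR's fit the level was 7.49 times as high in *ZK3*-WT cells. For ITGB8 the log2 fold change was -2.90 ± 0.63 (SE) with an FDR of 0.0698 by edgeR, and -2.46 with an FDR of 0.00708 without *ZK3*-KO replicate 3.

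The latent TGF-beta binding proteins LTBP4 and LTBP3, which anchor the latent complex in the matrix, were the most abundant genes of this role. LTBP4 was at 196, 174 and 209 CPM in *ZK3*-WT libraries and at 151, 115 and 234 CPM in *ZK3*-KO libraries (log2 fold change -0.21, FDR 0.717, and -0.53, FDR 0.0496, without *ZK3*-KO replicate 3). LTBP3 was at 146, 130 and 175 CPM against 87.2, 78.9 and 221 CPM (log2 fold change -0.22, FDR 0.805, and -0.85, FDR 0.0110, without that library). For both, *ZK3*-KO replicate 3 was the highest of all libraries and the other *ZK3*-KO libraries were below all *ZK3*-WT libraries. LTBP2, on chromosome 14 like TGFB3, was at 5.28, 6.48 and 9.07 CPM against 15.9, 7.38 and 25.1 CPM (log2 fold change 1.21, FDR 0.203, and 0.74 without *ZK3*-KO replicate 3).

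**Figure D5:**
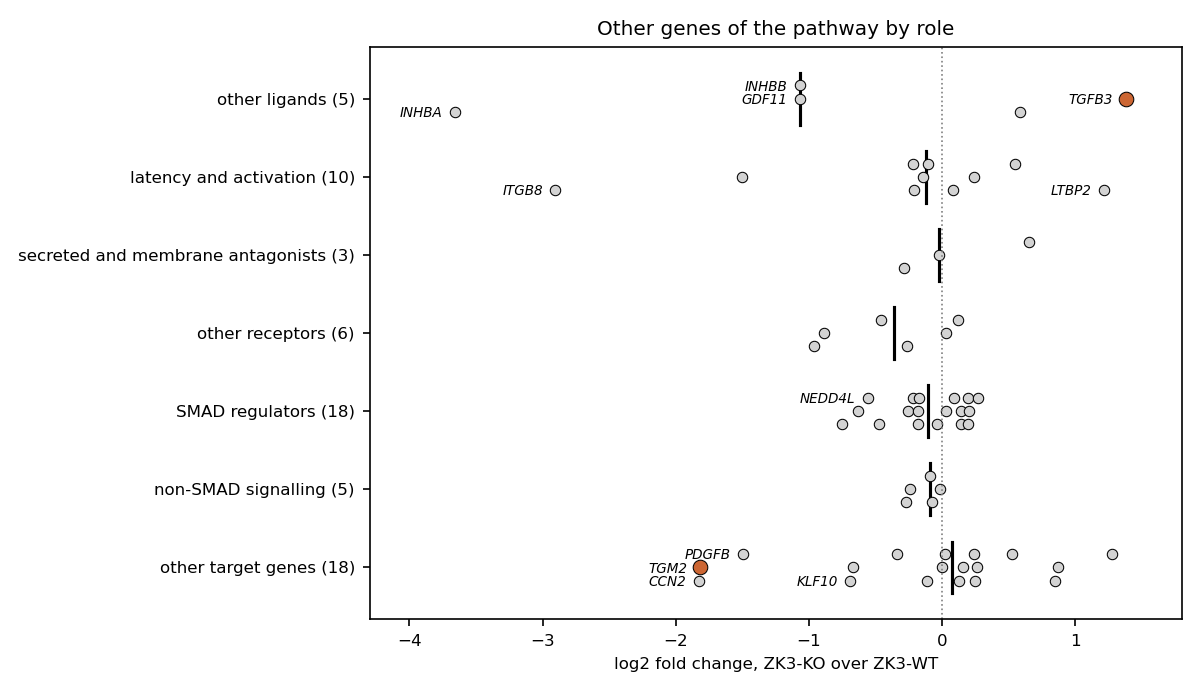
Log2 fold change of *ZK3*-KO over *ZK3*-WT cells (horizontal axis) of the 65 other tested pathway genes, 1 point a gene, in rows by role with the number tested in brackets and a black line at each median. The called genes TGFB3 (1.38) and TGM2 (-1.82) are orange, genes with an unadjusted p under 0.05 carry a name, and most others lie within 1 unit of 0.

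The remaining roles held no call with all libraries by edgeR, DESeq2 or limma. Of 6 secreted and membrane antagonists 3 were tested, with none under an unadjusted p of 0.05. CD109, a coreceptor that dampens TGF-beta signals, was at 179, 170 and 145 CPM in *ZK3*-WT libraries and at 181, 153 and 70.7 CPM in *ZK3*-KO libraries, the lowest in replicate 3 (log2 fold change -0.29, FDR 0.686, and 0.025 without that library). FSTL3, which binds activins, was at 20.2, 22.7 and 25.3 CPM against 18.6, 16.9 and 31.6 CPM (log2 fold change -0.02, FDR 0.973). Of 7 other receptors 6 were tested, none with an unadjusted p under 0.05, and the median log2 fold change was -0.36. Without *ZK3*-KO replicate 3 the median was -0.04, and ACVRL1, a type I receptor best known from endothelium, was called lower (log2 fold change -1.35, FDR 0.0285). The activin receptors ACVR1B and ACVR2B were the most abundant. ACVR1B was at 44.5 ± 4.10 CPM against 45.3 ± 2.08 CPM (SD, n = 3; log2 fold change 0.03, standard error 0.14) and ACVR2B at 55.4 ± 6.51 CPM against 46.2 ± 13.8 CPM (SD, n = 3; log2 fold change -0.26, standard error 0.24, and -0.036 without *ZK3*-KO replicate 3).

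All 18 SMAD regulators were tested, with a median log2 fold change of -0.11 and 1 gene under an unadjusted p of 0.05. That gene, NEDD4L, a ubiquitin ligase that acts on activated SMAD2 and SMAD3, was at 69.7, 92.2 and 90.8 CPM in *ZK3*-WT libraries and at 61.1, 60.1 and 50.4 CPM in *ZK3*-KO libraries (log2 fold change -0.56, FDR 0.147 by edgeR). SMAD7, the inhibitory SMAD induced as feedback, was at 3.44, 6.92 and 4.62 CPM against 2.33, 2.22 and 4.35 CPM (log2 fold change -0.75, FDR 0.338), and it passed without *ZK3*-KO replicate 3 (-1.13, FDR 0.0439). In that fit the median of the SMAD regulators was -0.02, and the other calls were SMURF2, a ubiquitin ligase (log2 fold change -0.71, FDR 0.0168), and LEMD3, a nuclear membrane protein that binds SMAD2 and SMAD3 (0.52, FDR 0.0450). The most abundant by mean TPM were FKBP1A and STRAP. FKBP1A, which guards the type I receptor against activity without ligand, was at 233 ± 15.3 CPM against 227 ± 15.4 CPM (SD, n = 3). STRAP, a receptor-binding adaptor, was at 185 ± 11.9 CPM against 188 ± 9.98 CPM (SD, n = 3). The log2 fold changes of FKBP1A and STRAP were -0.04 and 0.03, each with a standard error of 0.14. All 5 genes of non-SMAD signalling were tested, with a median log2 fold change of -0.09, or -0.0046 without *ZK3*-KO replicate 3, and none under an unadjusted p of 0.05. The kinase MAP3K7 was at 69.7, 75.8 and 73.4 CPM against 69.9, 75.1 and 62.5 CPM (log2 fold change -0.08, FDR 0.805, and -0.0046 without *ZK3*-KO replicate 3). Its adaptor TAB2 was at 146, 154 and 141 CPM against 137, 117 and 112 CPM (log2 fold change -0.27, FDR 0.364), lower in every *ZK3*-KO library.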

How the data were processed

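RNA of 3 *ZK3*-WT and 3 *ZK3*-KO cultures was sequenced by the authors as 150 bp paired-end reads from stranded polyadenylated libraries. The authors deposited 1 table with read counts per gene, not normalized, and TPM values, which the authors scaled by transcript length and depth. The submitters' processing notes name Bowtie2 2.2.5 and hg19 (GRCh37). The methods name an Ensembl annotation, whereas the table lists NCBI Gene identifiers. The authors' FPKM columns and gene annotation columns were not used.

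Counts of all 46427 genes were filtered with filterByExpr of edgeR 4.0.16 (R 4.3.3), which kept 18366 genes, scaled with TMM, and compared by the quasi-likelihood test with genotype as the only factor and Benjamini-Hochberg adjustment at an FDR of 0.05. Mean, SD and per-library levels are TMM-normalized CPM. The standard error of a log2 fold change was taken from the test statistic. TPM was used to compare levels between genes and for ratios, which were tested by a two-sided exact permutation test. The labels call the libraries of a genotype separate samples and the methods call them biological replicates. Their counts differed by more than sampling noise, with a chi-square per degree of freedom of 41.5 to 543 between pairs. The ceiling of 3 reads for TGFBI covers the counting error of *ZK3*-KO cells only.

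The genes of the group and the lists were chosen with earlier results of these data known. Genes named from the lists are those past the FDR and the 2 with the highest mean TPM per list. For the called gene of the group, the 3 most similar genes over libraries are named. ITGB8, PDGFB, CCN2, SMAD7, INHBA, INHBB, LTBP2, NEDD4L, KLF10, SMURF2, LEMD3, ACVRL1 and COL1A1 were added after seeing their values. Another target gene is not reported here.

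After the genotype mean was subtracted from each gene, libraries that share a replicate number correlated at 0.261 (number 1), 0.108 (number 2) and 0.419 (number 3). Libraries with different numbers correlated at -0.320 to 0.196. The ranges overlap, since *ZK3*-KO replicate 2 correlated more with *ZK3*-WT replicate 1 (0.196) than with *ZK3*-WT replicate 2. The numbers were taken to pair libraries in the block fit only, and the main fit and the exact tests do not use them. What the numbers mark is not given in the sources used here. As 14 alternatives the counts were tested with DESeq2 1.42.0, scaled by library totals alone or by upper-quartile factors, kept without a filter on low counts or with at least 10 reads in every library, tested by limma 3.58.1 on log2(CPM + 1) and on log2(TPM + 1), fitted with the replicate number as a block, and refitted with each library left out in turn. Scripts were tested on simulated counts. Gene positions come from GENCODE v44lift37 by symbol, and promoters from RefSeq on GRCh38.p14. All 100 list entries were found in the table by symbol. Figures were drawn with Python 3.11.15 and matplotlib 3.10.9.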

Additional observations from a re-analysis of the deposited data

How the results depend on the processing

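With all libraries 376 genes passed in edgeR's test. DESeq2 called 1506, and leaving out 1 library gave 49 to 2858, the highest without *ZK3*-KO replicate 3. The count among the 9 tested TGF-beta genes was 1, 2 in DESeq2 and 0 to 2 with 1 library left out: 0 without *ZK3*-WT replicates 2 or 3 or *ZK3*-KO replicates 1 or 2. TGFBR2 was called in 10 of 14 alternatives, with log2 fold changes from -1.59 to -1.21. The count among other pathway genes was 2. It was 8 in DESeq2, 1 with library totals alone, upper-quartile factors, no filter on low counts or at least 10 reads in every library, and 1 to 14 with 1 library left out, 14 without *ZK3*-KO replicate 3. TGFB3 passed in 4 of 14 alternatives.

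With the replicate number as a block, 461 genes passed, TGFBR2 was again the 1 gene of the group (FDR 0.0163 in edgeR's test), and 4 other pathway genes passed. The block changed no other call among the genes named except GDF11 and ITGB8, which passed with it.

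The log2 fold change changed sign for genes with no call with all libraries. On log2(TPM + 1) it was -0.022 for TGFBR1, -0.0028 for SMAD3, -0.088 for ACVR1B, -0.18 for JUNB, -0.026 for LEMD3 and -0.11 for STRAP. There the median of all tested genes was -0.08 against 0.02 in edgeR's fit, and 23.0% of 382 calls were higher against 39.9% of 376. With library totals alone ACVR1B was -0.055 and STRAP -0.056, and 30.1% of 369 calls were higher. With upper-quartile factors ACVR1B was -0.00048, and JUNB was -0.052 on log2(CPM + 1) and -0.053 with the block. With 1 library left out the values ranged from -0.0041 to 0.51 for TGFBR3, -0.060 to 0.32 for SMAD3, -0.29 to 0.086 for ZKSCAN3, -0.85 to 0.034 for LTBP3, -0.030 to 0.099 for ACVR1B, -0.68 to 0.63 for JUNB, -0.057 to 0.52 for LEMD3, -0.55 to 0.025 for CD109, -0.35 to 0.14 for FSTL3, -0.084 to 0.018 for FKBP1A and -0.022 to 0.074 for STRAP. The cause was not tested for any of these.

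TGFBI, with 17 reads in all, and INHBA lie near the limit of what this depth can compare. With 3 libraries a genotype, the exact test of a ratio cannot give a p below 0.1. The sources used here do not say whether the 3 *ZK3*-KO libraries come from 1 clone.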
